A study of Mus musculus with 8 samples.

Results

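The genes described here belong to glycolysis and to the response to low oxygen, and were taken from a list of 40 mouse gene symbols, of which 39 were found among the 25428 rows of the deposited array table. In the platform annotation 37 of them carried the listed symbol, Gpi1 and Eno1 were found through their Entrez identifiers in RefSeq, and no row was matched to Mxd1l. Liver sinusoidal endothelial cells (LSECs) were isolated with CD146 MicroBeads, which bind a surface protein of endothelial cells, from female C57BL/6J mice aged 2 months. Ctnnb1OE-EC mice carried 1 copy of the Clec4g-iCre transgene and 1 floxed Ctnnb1(Ex3) allele (tg/wt and fl/wt), so that an exon of Ctnnb1 is removed where the Clec4g promoter drives the recombinase, with a gain of function of β-catenin. Control mice are labelled Ctrl, and called wild type or Ctnnb1WT by the study, without their alleles being listed in the labels. The driver marks LSECs, but the study also found its activity in heart endothelium and an impaired heart function in these mice, so the model is not limited to the liver. Each of the 4 Ctrl and 4 Ctnnb1OE-EC samples held RNA from cells of 2 mice pooled, so a replicate is a pool. All values below are log2 expression values of single-colour Affymetrix arrays as the authors normalized them, and each difference is Ctnnb1OE-EC minus Ctrl.

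Glycolysis turns glucose into pyruvate in a chain of cytosolic enzymes, and lactate dehydrogenase can then convert the pyruvate to lactate. Endothelial cells are known to draw much of their energy from this route even where oxygen is present. The hypoxia inducible factors (HIFs) are dimers of an oxygen-labile alpha subunit (Hif1a, Epas1 or Hif3a) and the stable subunit Arnt. Prolyl hydroxylases of the Egln family mark the alpha subunit for destruction through Vhl when oxygen is present, and in its absence the dimer binds hypoxia response elements at genes for glycolytic enzymes, pyruvate dehydrogenase kinases, mitochondrial turnover and collagen modification. HIF activity is thus regulated mainly through the protein, which arrays do not measure.

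The labelled cell type was checked with its markers. All 8 LSEC markers and all 8 pan-endothelial markers lay above the array median of 4.20 in both groups, with group means between 10.39 and 12.88 for the LSEC markers. Lyve1, a hyaluronan receptor of LSECs, was the 1 LSEC marker that passed the test (12.16 in Ctrl, 10.39 in Ctnnb1OE-EC, adjusted p = 0.0178 from limma). Ctnnb1 itself had a difference of 0.34 (SE 0.13, adjusted p = 0.361 from limma), on a row that does not resolve the removed exon. On a principal component that held 30.6% of the variance of all rows, Ctnnb1OE-EC replicates 3 and 4 lay far from the remaining 6 samples. No deposited array was left out, and the sample medians were the same, 4.20.

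Promoter windows from RefSeq (build GRCm38.p6) are shown for 4 genes whose values are described below, Ldha, Bnip3, Ankrd37 and P4ha2, and for Tpi1 as a glycolytic gene without a match. Each runs from 250 bases before to 50 bases after the annotated start, is written 5′ to 3′ on the gene's strand, and has in capitals every ACGTG or GCGTG, the core letters of the hypoxia response element, and every CACGTG, the E-box that basic helix-loop-helix factors bind, on either strand (reverse complements CACGT and CACGC). The windows lie at chr7:46845554-46845853 on the plus strand for Ldha, chr7:138909457-138909756 on the minus strand for Bnip3, chr8:45999801-46000100 on the minus strand for Ankrd37, chr11:54100674-54100973 on the plus strand for P4ha2 and chr6:124814109-124814408 on the minus strand for Tpi1.
Ldha: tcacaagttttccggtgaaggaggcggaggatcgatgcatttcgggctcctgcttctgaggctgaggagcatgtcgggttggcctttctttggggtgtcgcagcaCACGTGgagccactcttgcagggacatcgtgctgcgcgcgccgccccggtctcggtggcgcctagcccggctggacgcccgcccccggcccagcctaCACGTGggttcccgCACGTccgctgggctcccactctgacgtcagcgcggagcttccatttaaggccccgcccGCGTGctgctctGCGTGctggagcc
Bnip3: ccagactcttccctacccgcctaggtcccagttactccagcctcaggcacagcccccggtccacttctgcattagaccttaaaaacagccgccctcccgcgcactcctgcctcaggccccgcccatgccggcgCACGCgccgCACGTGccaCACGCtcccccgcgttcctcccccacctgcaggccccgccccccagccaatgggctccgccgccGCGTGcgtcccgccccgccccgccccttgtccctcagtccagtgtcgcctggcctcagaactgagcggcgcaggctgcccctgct
Ankrd37: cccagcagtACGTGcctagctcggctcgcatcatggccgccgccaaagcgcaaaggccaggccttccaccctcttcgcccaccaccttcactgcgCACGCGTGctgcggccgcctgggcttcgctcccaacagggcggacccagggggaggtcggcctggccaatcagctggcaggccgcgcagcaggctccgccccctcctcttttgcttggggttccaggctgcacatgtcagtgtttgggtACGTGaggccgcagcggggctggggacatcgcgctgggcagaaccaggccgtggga
P4ha2: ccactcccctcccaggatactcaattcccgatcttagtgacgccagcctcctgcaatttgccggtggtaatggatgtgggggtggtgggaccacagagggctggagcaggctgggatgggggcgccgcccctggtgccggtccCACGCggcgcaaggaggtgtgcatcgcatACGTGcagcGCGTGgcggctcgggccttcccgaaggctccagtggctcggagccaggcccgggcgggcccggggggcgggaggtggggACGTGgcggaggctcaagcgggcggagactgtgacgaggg
Tpi1: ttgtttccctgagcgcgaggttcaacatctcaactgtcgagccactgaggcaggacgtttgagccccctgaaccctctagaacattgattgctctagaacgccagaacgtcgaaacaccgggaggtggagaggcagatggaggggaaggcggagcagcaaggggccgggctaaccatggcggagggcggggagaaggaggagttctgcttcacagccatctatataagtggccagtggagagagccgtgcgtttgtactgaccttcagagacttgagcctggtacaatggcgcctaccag

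The Ldha window shown held 5 matches to ACGTG, of which 4 come from its 2 palindromic CACGTG words read on both strands, and 2 to GCGTG. A second Ldha window, at chr7:46846832-46847131, held 0 matches to ACGTG and 2 to GCGTG. The windows of Bnip3, Ankrd37 and P4ha2 held 2 matches to ACGTG each, Bnip3 with 1 CACGTG, and that of Tpi1 held 0 of either core. RefSeq windows were found for 35 of the 39 genes, 50 windows in all, and Epas1, Ndrg1, Plod2 and Lox had no entry. ACGTG stood in 24 of the 50 windows (48.0%), against 19.6% of all 32851 mouse promoter windows of this length. GCGTG stood in 28 (56.0%, against 32.4%) and CACGTG, which contains ACGTG, in 5 (10.0%, against 7.15%). Of the 27 windows of glycolytic enzymes 12 held ACGTG, and of the 8 windows of hypoxia response genes 5 did. Some genes have more than 1 window and some of these overlap, as for Aldoa and Eno1, so the same site can count in more than 1 window. The genes were listed for glycolysis and the response to low oxygen, and the windows of all promoters were not matched to theirs in base composition. Shares above those of all windows are therefore not independent evidence about these genes. These are letter matches in a short window, and binding was not measured.

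The mean was higher in Ctnnb1OE-EC than in Ctrl LSECs for 24 of the 39 genes and lower for the other 15. The median difference was 0.11, against -0.01 over all rows, of which 46.4% were higher. None of the 39 passed limma's test at an adjusted p under 0.05, which 0.92% of all rows did, and 0 passed the methods' test (the one-way comparison for each gene that the study's methods name), which 0.0787% of all rows did. At an unadjusted p under 0.05 from limma stood 11 of the 39 (28.2%, against 11.5% of all rows), 8 of them higher (5.49% of all rows) and 3 lower (6.02%). The 8 samples separated by genotype without overlap for 5 genes (12.8%, against 7.59% of all rows): Gpi1, Tpi1 and Ldha were higher (3.55% of all rows separated in this direction) and Pfkfb3 and P4ha2 lower (4.04%) in every Ctnnb1OE-EC sample. Of the 39 genes, 32 lay above the array median. Among all rows at or above that median, 16.7% stood at an unadjusted p under 0.05 from limma. In these rows 11.1% separated without overlap, which is close to the 12.8% of the 39 genes. The count of 11 was 7 without Ctnnb1OE-EC replicate 3, and 5 without Ctnnb1OE-EC replicates 3 and 4 together. Since the RNA is that of all isolated cells, fewer cells of a type and less RNA per cell cannot be told apart in any of these values.

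**Figure D1:**
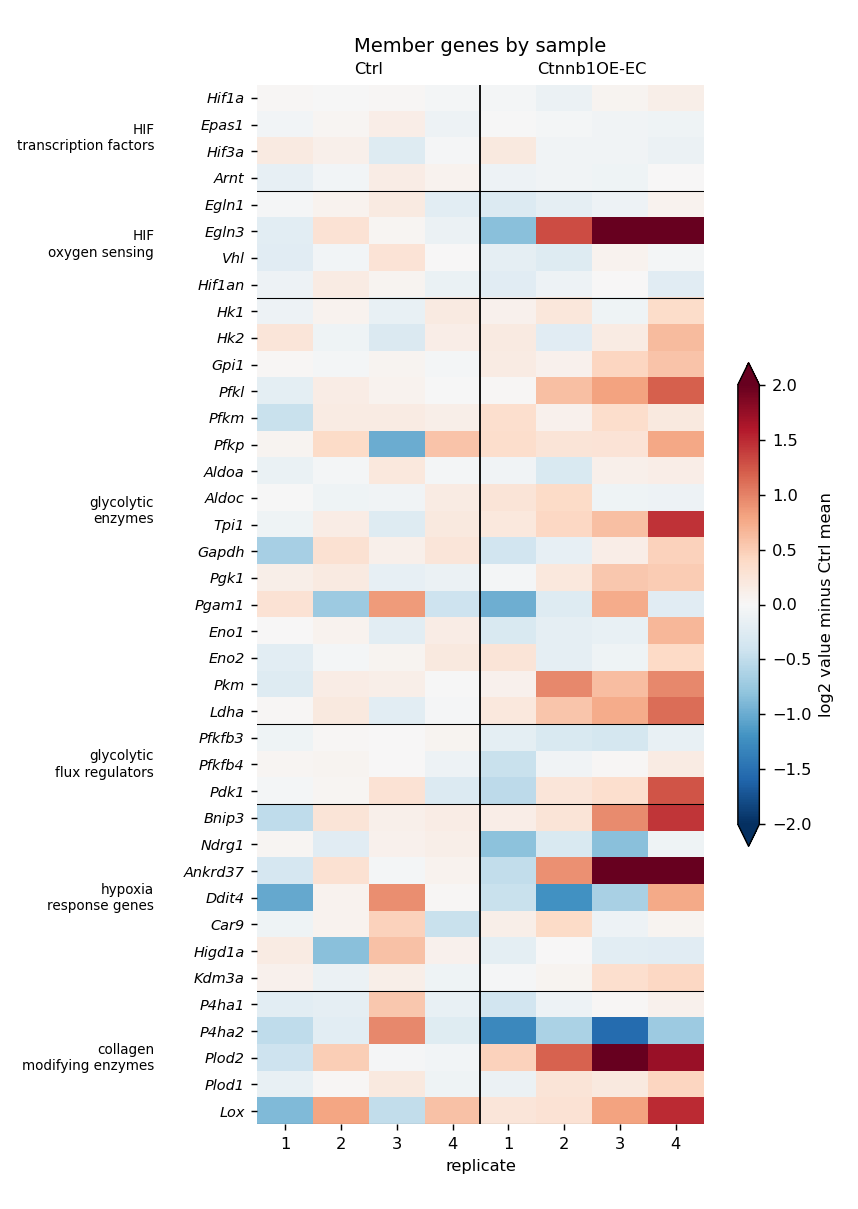
Log2 value minus the Ctrl mean of the gene for the 39 genes (rows, grouped by role) in the 4 Ctrl and 4 Ctnnb1OE-EC samples (columns, numbered by replicate), with the colour scale ending at -2 and 2. Red cells gather in Ctnnb1OE-EC replicates 3 and 4, where 15 and 23 of the 39 genes lay above every Ctrl sample, while replicate 1 had 7.

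The samples of the Ctnnb1OE-EC group differed among themselves. Ctnnb1OE-EC replicate 4 lay above every Ctrl sample in 23 of the 39 genes (59.0%, against 23.9% of all rows) and replicate 3 in 15 (38.5%, against 23.8%). Replicate 2 did so in 12 (30.8%, against 24.3%) and replicate 1 in 7 (17.9%, against 20.8%). In the other direction, replicate 1 lay below every Ctrl sample in 13 genes (33.3%, against 28.1% of all rows) and replicate 2 in 7 (17.9%, against 25.6%). Replicates 3 and 4 did so in 4 each (10.3%, against 28.5% and 22.6%). Ctnnb1OE-EC replicates 3 and 4 held the 2 highest of the 8 values in 13 genes (33.3%), which was so for 5.75% of all rows and for 7.24% of rows at or above the array median. The SD within the group was 0.5 or more in 9 of the 39 genes in Ctnnb1OE-EC (23.1%, against 6.40% of all rows) and in 6 in Ctrl (15.4%, against 4.81%).

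The genes for the HIF subunits themselves differed little between the genotypes. Hif1a, the alpha subunit found in most cells, had values of 8.44, 8.40, 8.44 and 8.37 in Ctrl replicates 1 to 4 and of 8.37, 8.29, 8.47 and 8.54 in Ctnnb1OE-EC replicates 1 to 4. The groups overlapped, and the difference was 0.01 with a 95% interval of -0.19 to 0.20 (adjusted p = 0.987 from limma). Epas1, the endothelial alpha subunit HIF-2α, had 11.08, 11.17, 11.27 and 11.04 in Ctrl and 11.13, 11.10, 11.08 and 11.06 in Ctnnb1OE-EC. Every Ctnnb1OE-EC value lay within the Ctrl range, with a difference of -0.05 (95% interval -0.24 to 0.14, adjusted p = 0.892 from limma). Arnt, the partner of the alpha subunits, had 8.97 to 9.29 in Ctrl and 9.03 to 9.15 in Ctnnb1OE-EC, a difference of -0.06. Hif3a lay below the array median in all samples, with a difference of -0.02. None of these 4 genes stood at an unadjusted p under 0.05.

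Among the oxygen sensing genes, Egln3 stood out by its spread. Egln3, a prolyl hydroxylase that is itself a known target of the HIFs, had 4.60, 5.10, 4.85 and 4.68 in Ctrl and 3.98, 6.12, 8.11 and 7.15 in Ctnnb1OE-EC. Replicates 2, 3 and 4 of Ctnnb1OE-EC lay above every Ctrl sample and replicate 1 below every one. The SD was 0.22 in Ctrl and 1.77 in Ctnnb1OE-EC, and the difference of 1.53 (SE 0.72) did not pass (adjusted p = 0.474 from limma). It was 0.24 without Ctnnb1OE-EC replicates 3 and 4. Hif1an, an asparagine hydroxylase that blocks HIF activity, had 6.16, 6.43, 6.31 and 6.13 in Ctrl and 6.03, 6.16, 6.26 and 6.03 in Ctnnb1OE-EC. Here the groups overlapped, with a difference of -0.14 (95% interval -0.37 to 0.09). Egln1, the main prolyl hydroxylase, and Vhl, which recognises hydroxylated HIF alpha, had differences of -0.12 and -0.10, with adjusted p of 0.769 and 0.826 from limma.

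The mean was higher in Ctnnb1OE-EC for 14 of the 16 genes of glycolytic enzymes (46.4% of all rows were higher), and the median difference was 0.22. At an unadjusted p under 0.05 stood 5 of them (31.2%), all higher: Gpi1, Pfkl, Tpi1, Pkm and Ldha. Over all rows 11.5% stood at that level, 5.49% of them in the higher direction, and among rows at or above the array median 16.7%. None of the 5 passed over all rows (adjusted p from 0.190 to 0.361 from limma), and their differences ranged from 0.31 to 0.66, which is 1.24-fold to 1.58-fold.

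Gpi1, which turns glucose-6-phosphate into fructose-6-phosphate, had 10.88, 10.81, 10.92 and 10.81 in Ctrl and 11.02, 10.93, 11.29 and 11.43 in Ctnnb1OE-EC. All 4 Ctnnb1OE-EC samples lay above all 4 Ctrl samples, replicates 1 and 2 by little, for a difference of 0.31 (SE 0.12, adjusted p = 0.361 from limma). Pfkl, the liver-type subunit of phosphofructokinase, the committed step of glycolysis, had 7.63, 7.97, 7.89 and 7.82 in Ctrl and 7.84, 8.43, 8.63 and 9.02 in Ctnnb1OE-EC. Ctnnb1OE-EC replicate 1 fell within the Ctrl range and the other 3 above it, for a difference of 0.65 (SE 0.22, adjusted p = 0.279 from limma). Tpi1, the triose phosphate isomerase, had 7.53, 7.75, 7.35 and 7.81 in Ctrl and 7.81, 8.02, 8.21 and 9.05 in Ctnnb1OE-EC. The groups just failed to touch, since the highest Ctrl and the lowest Ctnnb1OE-EC value are equal at 2 decimals, and the difference was 0.66 (SE 0.25, adjusted p = 0.340 from limma).

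Pkm, the pyruvate kinase of most tissues outside the liver parenchyma, had 8.85, 9.27, 9.24 and 9.11 in Ctrl and 9.20, 10.08, 9.74 and 10.08 in Ctnnb1OE-EC. Again replicate 1 alone lay within the Ctrl range, and the difference was 0.66 (SE 0.20, adjusted p = 0.229 from limma). Ldha, which forms lactate from pyruvate, had 9.59, 9.76, 9.36 and 9.55 in Ctrl and 9.78, 10.12, 10.31 and 10.69 in Ctnnb1OE-EC. The groups did not overlap, though replicate 1 was close to Ctrl replicate 2, and the difference was 0.66 (SE 0.18, adjusted p = 0.190 from limma). An exact two-sided permutation test gave p = 0.0286, the smallest that 4 samples against 4 allow. Every gene without overlap gets this value, so it adds nothing to the separation. Without Ctnnb1OE-EC replicates 3 and 4, the differences of Gpi1, Pfkl, Tpi1, Pkm and Ldha were 0.12, 0.31, 0.31, 0.52 and 0.38.

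**Figure D2:**
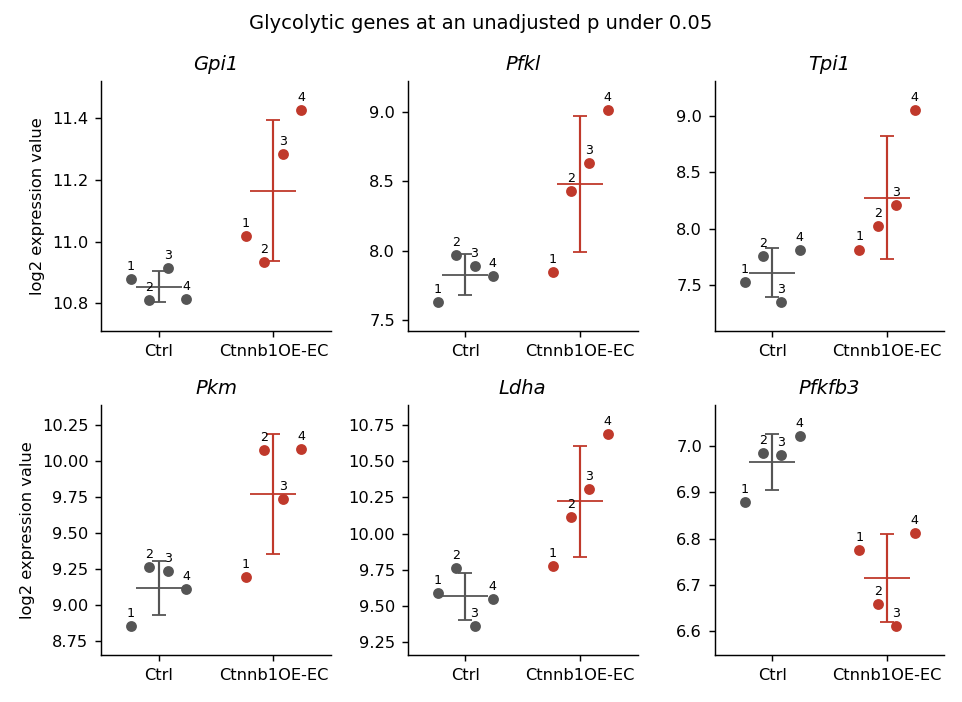
Log2 expression value (y axes, each with its own range) of 6 glycolytic genes in the 4 Ctrl (grey) and 4 Ctnnb1OE-EC (red) samples, with the replicate number beside each point and lines for the mean ± SD. In the 5 enzymes Ctnnb1OE-EC replicate 1 lies at or near the Ctrl values, and in Pfkfb3 all Ctnnb1OE-EC samples lie below all Ctrl samples.

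The other 11 enzyme genes had adjusted p from 0.485 to 0.993. Pgk1, which yields the first ATP of the route, had 6.24, 6.30, 5.96 and 6.01 in Ctrl and 6.09, 6.34, 6.66 and 6.64 in Ctnnb1OE-EC, a difference of 0.31 with overlap of the groups. The other phosphofructokinase subunits, Pfkp and Pfkm, had 0.42 and 0.25, the first with an SD of 0.70 in Ctrl, where replicate 3 was low at 6.70. The hexokinases Hk1 and Hk2, which trap glucose in the cell, had 0.15 and 0.19. Aldoa, Aldoc, Eno1 and Eno2, aldolases and enolases, lay between -0.03 and 0.11. Aldoc, Gapdh, Pgam1 and Eno2 had row means below the array median, where signal and background are poorly separated. The row of Gapdh, whose mRNA is abundant in most cells, was at 1.89 to 3.01, so it is no measure of that transcript here. Several of these enzymes have many near-identical copies in the mouse genome, and Eno1b, a copy of Eno1 with a row of its own, had means of 1.94 and 2.15.

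In the mean over the 16 enzyme genes, relative to the Ctrl mean of each gene, the Ctrl samples lay between -0.08 and 0.08. Ctnnb1OE-EC replicate 1 was within that range at 0.02, replicate 2 above it at 0.16, replicate 3 at 0.32 and replicate 4 at 0.57. Of the 16 genes, 6, 8, 7 and 13 lay above every Ctrl sample in Ctnnb1OE-EC replicates 1 to 4. Over all rows the shares above every Ctrl sample were 20.8%, 24.3%, 23.8% and 23.9%.

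None of the 3 regulators of glycolytic flux passed the test. Pfkfb3, which makes the activator of phosphofructokinase and is known to set glycolytic rate in sprouting endothelial cells, had 6.88, 6.98, 6.98 and 7.02 in Ctrl and 6.77, 6.66, 6.61 and 6.81 in Ctnnb1OE-EC. All 4 Ctnnb1OE-EC samples lay below all 4 Ctrl samples, with a difference of -0.25 (SE 0.09, adjusted p = 0.294 from limma) that was also -0.25 without Ctnnb1OE-EC replicates 3 and 4. Pdk1, which turns off pyruvate dehydrogenase, had 6.44, 6.53, 6.77 and 6.21 in Ctrl and 5.96, 6.74, 6.82 and 7.75 in Ctnnb1OE-EC. Its Ctnnb1OE-EC samples spread on both sides of the Ctrl range, for a difference of 0.33 (SE 0.32, adjusted p = 0.769 from limma). Pfkfb4, of the same family as Pfkfb3, had -0.08.

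The 7 hypoxia response genes went both ways, 4 higher and 3 lower, and 2 higher and 1 lower stood at an unadjusted p under 0.05. Over all rows 5.49% stood at that level in the higher and 6.02% in the lower direction. Bnip3, a mitochondrial protein of mitophagy, had 6.07, 6.84, 6.67 and 6.72 in Ctrl and 6.71, 6.83, 7.53 and 8.01 in Ctnnb1OE-EC. Replicates 1 and 2 lay within the Ctrl range and replicates 3 and 4 above it, for a difference of 0.69 (SE 0.29, adjusted p = 0.408 from limma). Ankrd37, an ankyrin repeat protein known as a HIF target, had 4.30, 4.95, 4.59 and 4.71 in Ctrl and 4.15, 5.55, 7.03 and 7.65 in Ctnnb1OE-EC. Its pattern was that of Egln3, with replicate 1 below every Ctrl sample and the other 3 above, for a difference of 1.46 (SE 0.65, adjusted p = 0.433 from limma). Without Ctnnb1OE-EC replicates 3 and 4 the differences of Bnip3 and Ankrd37 were 0.19 and 0.21.

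Ndrg1, a cytosolic protein induced by low oxygen and other stresses, went the other way, with 10.52, 10.26, 10.57 and 10.60 in Ctrl and 9.67, 10.19, 9.65 and 10.40 in Ctnnb1OE-EC. Replicates 1 and 3 were the lowest, replicate 2 was just below the lowest Ctrl sample and replicate 4 within the Ctrl range, so the difference of -0.51 (SE 0.18, adjusted p = 0.307 from limma) did not rest on replicates 3 and 4, without which it was -0.56. Ddit4, an inhibitor of mTORC1, had -0.38 with SDs of 0.80 and 0.83. Kdm3a, a histone demethylase, had 0.20 and Higd1a, a mitochondrial protein, -0.16. Car9, a carbonic anhydrase that is known as a marker of hypoxia in tumours, lay below the array median, with means of 3.30 and 3.41 (adjusted p = 0.877 from limma).

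The collagen modifying enzymes, several of them known HIF targets, held the smallest p of the 39 genes. Plod2, a lysyl hydroxylase that sets the type of collagen cross-link, had 3.59, 4.50, 3.98 and 3.96 in Ctrl and 4.47, 5.20, 6.14 and 5.73 in Ctnnb1OE-EC. The overlap was small, Ctnnb1OE-EC replicate 1 lying just below Ctrl replicate 2, and the difference was 1.38 (SE 0.34, 2.59-fold, adjusted p = 0.132 from limma), from a Ctrl mean of 4.01 below the array median, so the fold is uncertain. Without Ctnnb1OE-EC replicate 1 it was 1.68 and passed (adjusted p = 0.0399 from limma), and without Ctnnb1OE-EC replicates 3 and 4 it was 0.82 and did not (adjusted p = 0.378). P4ha2, a prolyl 4-hydroxylase subunit, had 6.09, 6.39, 7.56 and 6.36 in Ctrl and 5.32, 5.97, 5.06 and 5.87 in Ctnnb1OE-EC. Every Ctnnb1OE-EC sample lay below every Ctrl sample, with Ctrl replicate 3 high, for a difference of -1.05 (SE 0.33, adjusted p = 0.243 from limma) that ranged from -1.22 to -0.73 when single samples were left out.

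The related subunit P4ha1 differed by -0.10 and Plod1, a lysyl hydroxylase, by 0.20. Lox, the lysyl oxidase that starts collagen cross-linking, had 3.41, 5.09, 3.81 and 4.88 in Ctrl and 4.53, 4.59, 5.10 and 5.80 in Ctnnb1OE-EC. The Ctrl samples were themselves split, and the difference of 0.71 (SE 0.41) did not pass (adjusted p = 0.581 from limma).

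**Figure D3:**
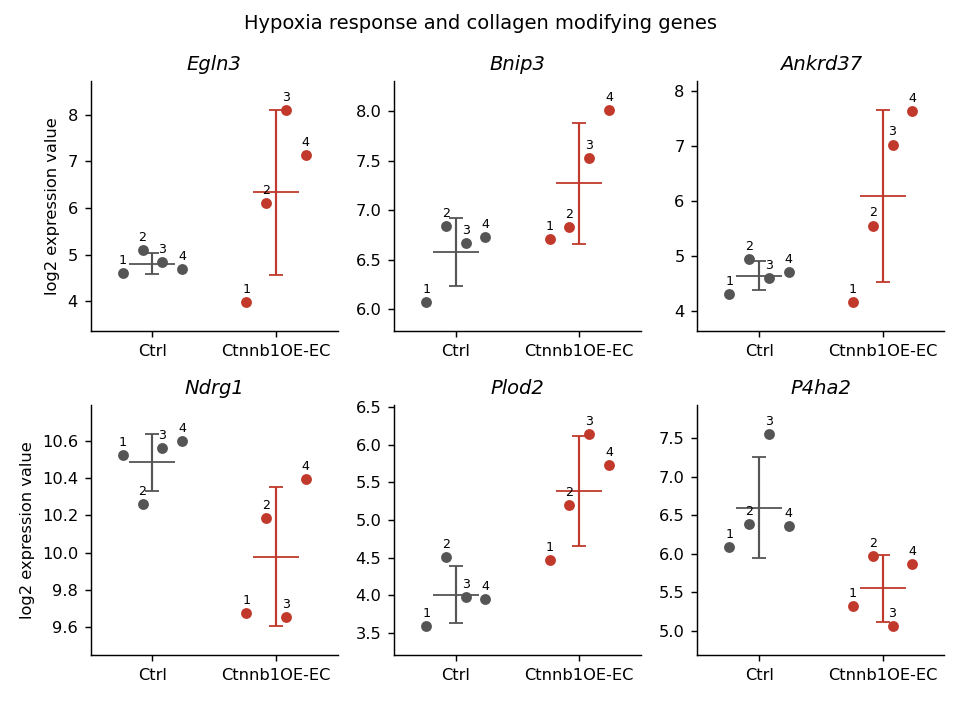
Log2 expression value (y axes, each with its own range) of Egln3, Bnip3, Ankrd37, Ndrg1, Plod2 and P4ha2 in the 4 Ctrl (grey) and 4 Ctnnb1OE-EC (red) samples, with replicate numbers and lines for the mean ± SD. Egln3 and Ankrd37 spread over a range of 4.13 and 3.5 in Ctnnb1OE-EC, with replicate 1 at the bottom and replicates 3 and 4 at the top, while P4ha2 is lower in all 4.

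Other genes of the same pathways, 71 in 4 lists, were read for context. Of these, 3 passed limma's test (0.92% of all rows did), 1 higher and 2 lower, and 17 stood at an unadjusted p under 0.05 (23.9%, against 11.5%), 10 higher and 7 lower. Among all rows at or above the array median, 16.7% stood at that level. No call came among the 12 genes of mitochondrial pyruvate entry, while the 19 other glycolysis genes held 1 lower call, the 33 other HIF pathway genes 1 higher call and the 7 other collagen modifying genes 1 lower call.

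Ldhb, the lactate dehydrogenase subunit that favours the conversion of lactate to pyruvate, had 7.86, 7.90, 8.01 and 7.90 in Ctrl and 7.25, 7.19, 7.18 and 6.87 in Ctnnb1OE-EC. All Ctnnb1OE-EC samples, replicate 1 included, lay well below all Ctrl samples, and it fell by 0.80 on the log2 scale (SE 0.10, adjusted p = 0.00989 from limma). The study lists Ldhb among its changed genes from these same samples, so it is not independent evidence. Thus Ldha and Ldhb, subunits of 1 tetrameric enzyme, differed in opposite directions, Ldhb with a pass and Ldha without. The call of Ldhb was lost by the methods' test (adjusted p = 0.0651), with the replicate number as a block (0.0664) and without Ctnnb1OE-EC replicates 3 and 4 (0.0754), where the difference was -0.70. The study's own analysis did call Ldhb, so the methods' test as run here did not reproduce that call. Tigar, a phosphatase that lowers the same activator that Pfkfb3 makes, had 5.33 to 5.39 in Ctrl and 5.0 to 5.20 in Ctnnb1OE-EC, lower in 4 of 4 samples by 0.25 on average (adjusted p = 0.260 from limma). Ldhc, the testis form, lay below the array median, with -0.22.

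Cited2, an inhibitor of HIF that competes for its coactivators and is itself induced by HIF, had 7.26, 7.07, 6.85 and 6.93 in Ctrl and 7.72, 7.70, 8.26 and 8.02 in Ctnnb1OE-EC. It rose by 0.89 (SE 0.15, adjusted p = 0.0304 from limma) with no overlap of the groups. The call was lost without any of Ctrl replicates 1, 2, 3 or 4 or Ctnnb1OE-EC replicates 1, 3 or 4 (adjusted p from 0.050 to 0.106), that is in 7 of the 8 fits with a sample left out, and without Ctnnb1OE-EC replicates 3 and 4 together (0.176). It was also lost with the replicate number as a block (0.166) and by the methods' test (0.134). Vegfa, a HIF target that drives endothelial growth and permeability, had 6.23, 6.39, 6.14 and 6.62 in Ctrl and 7.23, 7.35, 8.64 and 8.70 in Ctnnb1OE-EC. All 4 Ctnnb1OE-EC samples lay above Ctrl and replicates 3 and 4 highest, but the difference of 1.63 did not pass (adjusted p = 0.0769 from limma). Angptl4, a secreted inhibitor of lipoprotein lipase, had 4.80, 4.00, 4.21 and 3.75 in Ctrl and 5.05, 8.40, 6.56 and 9.29 in Ctnnb1OE-EC. Here replicate 2 was higher than replicate 3, and the difference of 3.14 (SE 0.79) did not pass (adjusted p = 0.142), except without Ctnnb1OE-EC replicate 1, where it was 3.89 (adjusted p = 0.0287 from limma).

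Slc2a1, the glucose transporter GLUT1, chosen after its values were seen, had 6.31, 7.01, 5.93 and 6.88 in Ctrl and 6.67, 6.89, 8.53 and 9.31 in Ctnnb1OE-EC. Replicates 1 and 2 lay within the Ctrl range and replicates 3 and 4 far above it, for a difference of 1.32 (SE 0.56, adjusted p = 0.410 from limma). Slc2a3, the glucose transporter GLUT3, chosen in the same way, had 5.38, 5.77, 7.49 and 7.44 in Ctnnb1OE-EC and 5.18 to 5.70 in Ctrl. Ctnnb1OE-EC replicate 2 thus lay just above the Ctrl range and replicates 3 and 4 far above it. Across the 33 other HIF pathway genes the difference was positive for 24 and negative for 9. Ctnnb1OE-EC replicates 3 and 4 held the 2 highest values in 12 of the 33 (36.4%). Bhlhe40 lay above Ctrl in all 4 Ctnnb1OE-EC samples (1.15, adjusted p = 0.143 from limma). Insig2 lay below Ctrl in all 4 (-0.29, adjusted p = 0.28 from limma). Ero1l, Ak4 and Epo differed by -0.11, -0.08 and -0.17, and Hmox1 and Bnip3l by 0.08 and 0.01.

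At the entry of pyruvate into mitochondria, the kinases that turn off pyruvate dehydrogenase differed in sign. Pdk4, the starvation-induced kinase, had 9.17, 9.12, 9.46 and 9.0 in Ctrl and 8.11, 8.79, 8.92 and 8.71 in Ctnnb1OE-EC. It was lower in all 4 Ctnnb1OE-EC samples, with a difference of -0.55 (adjusted p = 0.267 from limma). Pdk3 had 5.81, 6.16, 6.32 and 6.19 in Ctrl and 6.14, 6.74, 6.82 and 6.57 in Ctnnb1OE-EC, a difference of 0.45 (adjusted p = 0.353) in which replicate 1 alone lay within the Ctrl range. Mpc1, a subunit of the mitochondrial pyruvate carrier, had 0.39 (adjusted p = 0.632 from limma) on a row below the array median.

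Among the other collagen modifying genes, Loxl4, a lysyl oxidase, had 5.53, 5.46, 5.55 and 5.82 in Ctrl and 4.99, 4.51, 4.68 and 4.86 in Ctnnb1OE-EC. It fell by 0.83 on the log2 scale (SE 0.13, adjusted p = 0.0219 from limma), without overlap of the groups. The call was lost without Ctrl replicate 1, 2, 3 or 4 or Ctnnb1OE-EC replicate 3 (adjusted p from 0.0529 to 0.0817) and without Ctnnb1OE-EC replicates 3 and 4 together (0.170). It was also lost with the replicate block (0.0638) and by the methods' test (0.102). Loxl3, of the same family, had 8.16 to 8.60 in Ctrl and 6.92 to 8.09 in Ctnnb1OE-EC, lower in 4 of 4 samples, with a difference of -0.76 (adjusted p = 0.238 from limma), while Loxl1 had 0.30.

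**Figure D4:**
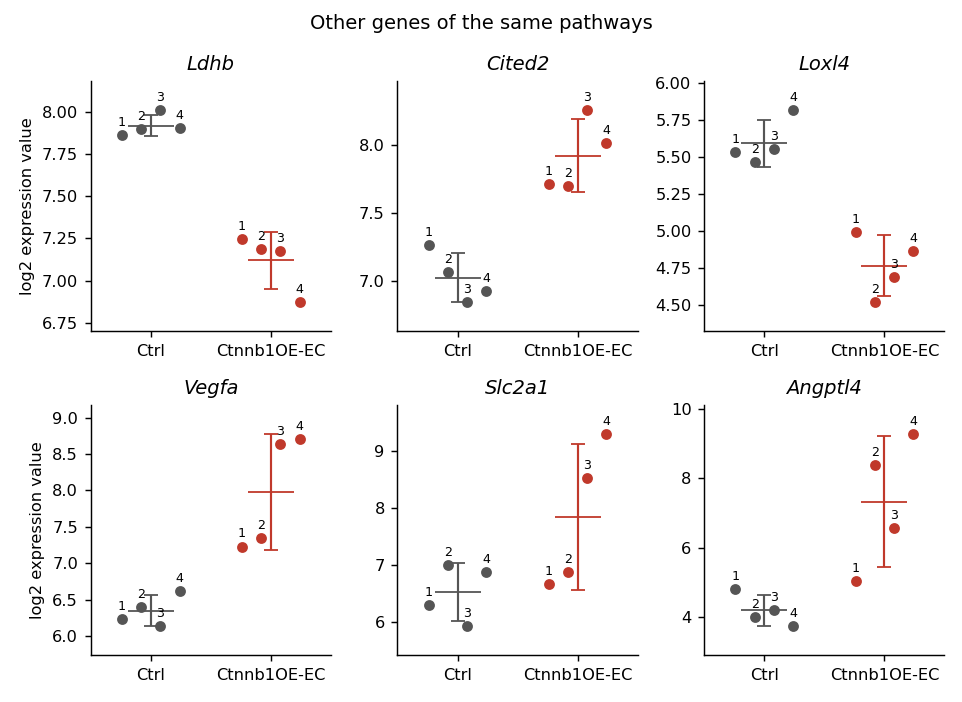
Log2 expression value (y axes, each with its own range) of Ldhb, Cited2, Loxl4, Vegfa, Slc2a1 and Angptl4 in the 4 Ctrl (grey) and 4 Ctnnb1OE-EC (red) samples, with replicate numbers and lines for the mean ± SD. Ldhb, Cited2 and Loxl4, which passed the test, separate in all 4 Ctnnb1OE-EC samples, whereas Slc2a1 is above the Ctrl range in replicates 3 and 4.

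Marker genes of some other cell types, but not of all, differed in the same Ctnnb1OE-EC samples. The mean over 10 neutrophil and monocyte markers, relative to Ctrl, was 1.11 in Ctnnb1OE-EC replicate 3 and 1.21 in replicate 4, and no other sample exceeded 0.63. The group mean was higher in Ctnnb1OE-EC for 9 of the 10, and their mean log2 value was 4.13 to 5.18 in Ctrl and 4.45 to 5.76 in Ctnnb1OE-EC, with 4 row means, Ngp and Camp among them, below the array median. The mean over 8 adrenal cortex genes was 2.56 and 1.78 in replicates 3 and 4 and at most 0.14 in the others, with all 8 higher. Their mean log2 value was 3.08 to 3.34 in Ctrl and 2.98 to 5.76 in Ctnnb1OE-EC, and 7 of their 8 row means, all but that of Star, lay below the array median. The mean over 8 smooth muscle genes was 1.5 and 1.63 in these replicates, but also 1.46 in Ctrl replicate 2, whose mean over the 39 genes was 0.05. Its mean log2 value was 4.54 to 6.83 in Ctrl and 5.02 to 7.0 in Ctnnb1OE-EC, with all 8 genes higher, 2 below the array median, and Mylk past the test (5.51 and 7.39, adjusted p = 0.00917 from limma).

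Dissociation stress genes, which cells induce while tissue is digested, had means of 1.46 and 0.38 in Ctnnb1OE-EC replicates 3 and 4, -0.66 and 0.04 in replicates 1 and 2, and -0.48 to 0.84 in Ctrl. The group mean was higher in Ctnnb1OE-EC for 7 of these 9, and their mean log2 value was 8.37 to 9.69 in Ctrl and 8.19 to 10.30 in Ctnnb1OE-EC. Hepatocyte markers went the other way in replicates 3 and 4, with -1.90 and -1.09, and were highest in Ctnnb1OE-EC replicate 1 at 1.37, against -0.95 to 0.94 in Ctrl. All 8 had a lower mean in Ctnnb1OE-EC, and their mean log2 value was 8.20 to 10.10 in Ctrl and 7.25 to 10.53 in Ctnnb1OE-EC. The pancreatic acinar markers had -2.46 and -1.97 in replicates 3 and 4, 1.87 and 0.38 in replicates 1 and 2, and -2.47 to 2.33 in Ctrl. Erythroid markers, all 6 below the array median, had 0.36 and 0.39 in replicates 3 and 4, where no other sample exceeded 0.11, and megakaryocyte and platelet markers 0.22 and 0.38 against at most 0.12. Other lists did not set replicates 3 and 4 apart. Kupffer cell markers had -0.05 and 0.71 there (Ctrl -0.90 to 0.77), and stellate cell and fibroblast markers 0.42 and 0.17 (Ctrl -1.63 to 0.71). B and T cell markers had 0.49 and -0.42 (Ctrl -0.28 to 0.24) and were highest in Ctnnb1OE-EC replicate 1, at 0.70. The pan-endothelial markers had means of 0.01 to 0.14 in Ctnnb1OE-EC, against -0.11 to 0.09 in Ctrl. Mcam, with a difference of 0.65 (adjusted p = 0.330 from limma), weighs heavily in the Ctnnb1OE-EC means of this list. The LSEC markers had means of -0.47 to -0.20 in Ctnnb1OE-EC and -0.06 to 0.09 in Ctrl, so the means of all 4 Ctnnb1OE-EC samples lay below those of all Ctrl samples. Lyve1, with a difference of -1.78, weighs heavily in these means. The medians over the 8 markers overlapped, at -0.046 in Ctnnb1OE-EC replicate 2 and -0.052 in Ctrl replicate 4. The mean over the 39 genes was -0.13, 0.10, 0.30 and 0.53 in Ctnnb1OE-EC replicates 1 to 4 and -0.15 to 0.09 in Ctrl, and that over the 33 other HIF pathway genes was 0.04, 0.17, 0.58 and 0.84, against -0.03 to 0.08 in Ctrl. A few genes weigh heavily in these means, as Egln3, Ankrd37 and Plod2 in replicate 3. The medians over the 39 genes were -0.041, 0.003, 0.11 and 0.40, against -0.09 to 0.07 in Ctrl. Over the 33 genes they were 0.006, 0.026, 0.23 and 0.31, against -0.037 to 0.061 in Ctrl. The part of these other cell types in the values of the glycolysis and hypoxia genes was not tested.

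**Figure D5:**
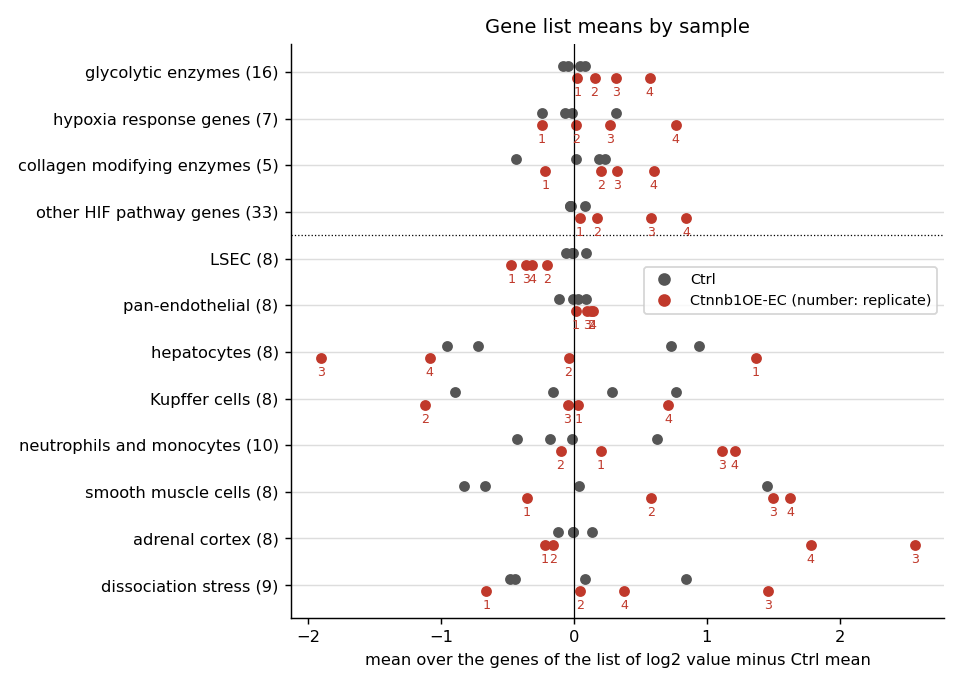
Mean over the genes of a list (number of genes in parentheses) of the log2 value minus the Ctrl mean of each gene (x axis), with 1 point per Ctrl (grey) or Ctnnb1OE-EC (red, with its replicate number) sample; lists above the dotted line are pathway genes and those below it markers. Ctnnb1OE-EC replicates 3 and 4 lie to the right of all Ctrl samples for glycolytic enzymes (0.32 and 0.57) and for adrenal cortex genes (2.56 and 1.78), and to the left for hepatocyte markers (-1.90 and -1.09).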

How the data were processed

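RNA of CD146-selected LSECs from 8 pools of mice (4 Ctrl, 4 Ctnnb1OE-EC) was hybridized to Affymetrix mouse gene arrays. The authors used a custom chip definition file with 1 row for each Entrez gene, used RMA (robust multiarray analysis) against background, applied quantile normalization and deposited log2 values. The normalization gives all samples 1 common distribution (largest difference of sorted values 0.00183), and no pair of samples was identical (0 pairs). Scanner files and scan dates were not analysed here, so no other background correction or batch term was run. Of 25428 rows, 24705 were named by the platform annotation, 564 through RefSeq and 159 not.

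All rows were fitted with limma 3.58.1 in R 4.3.3 (group means, eBayes without trend, prior degrees of freedom 3.21, two-sided, Benjamini-Hochberg adjustment over all rows, threshold 0.05), with no added filter or covariate. The fit was also run on simulated normal values, drawn independently with the same SD in both groups of a row. In the data the SD of some genes differed between the groups, as for Egln3, and that run does not cover this case. Single genes were also given an exact two-sided permutation test over 70 assignments. The one-way test per gene of the study's methods, with false discovery rate adjustment, was run as an alternative (the methods' test). As run here it called fewer genes than the study reports, so it is not a copy of the study's analysis. Other alternatives were a trended and robust prior, array weights, renewed quantile normalization, median centring, filters on rows below the 25th percentile or the median of row means, a block for the replicate number, fits without each sample, Ctnnb1OE-EC replicates 3 and 4 left out together, and a threshold of 0.1. The list mean of a sample is the mean over genes of the log2 value minus the Ctrl mean of the gene. The genes and all lists were chosen with earlier results of these data known, and the adrenal and smooth muscle lists because of them. Genes were named by role: all with an unadjusted p under 0.05, at least 2 per role, Hif1a and Epas1, and of the other lists those past the threshold or up to 3 with the smallest p. With 4 arrays a group, their number sets the precision. The p-values from limma set each difference against the spread between pools, moderated over all rows, and the spread between single mice is not seen. Promoter letters were counted with Python 3.11.15.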

Additional observations from a re-analysis of the deposited data

Results flagged for a closer look

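In 13 of 220 groups of 4 values (5.91%, where chance flags about 1 in 20), 1 sample stood far from the other 3, by the gap to the nearest sample over the range of the group. Among the glycolysis and hypoxia genes these were Hif3a in Ctnnb1OE-EC replicate 1 (3.25), Pfkm in Ctrl replicate 1 (5.41, the lowest), Pfkp in Ctnnb1OE-EC replicate 4 (8.46), Eno1 in Ctnnb1OE-EC replicate 4 (6.54) and P4ha1 in Ctrl replicate 3 (9.36). Among the other pathway genes, Ctnnb1OE-EC replicate 4 was the highest for Pgm2, a phosphoglucomutase (9.78), and Pdp1, a pyruvate dehydrogenase phosphatase (6.13), replicate 3 for Pdhx, a component of pyruvate dehydrogenase (6.61), and replicate 1 for Nos2, the inducible nitric oxide synthase (4.30). In Ctrl, replicate 4 was the highest for Pklr, the pyruvate kinase of hepatocytes and red cells (6.84), replicate 3 for Siah2, a ubiquitin ligase (6.16), and Mxi1, an antagonist of Myc (6.74), and replicate 2 for Loxl1 (5.46).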

How the results depend on the processing

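Over all rows 234 genes passed, against 20 by the methods' test, 86 with the replicate block, 61 without Ctnnb1OE-EC replicates 3 and 4, 92 to 223 with 1 sample left out and 386 at a threshold of 0.1. Of the 39 glycolysis and hypoxia genes, 0 passed under any of these settings except 1, Plod2, without Ctnnb1OE-EC replicate 1, so that with 1 sample left out the count was 0 to 1. The count at an unadjusted p under 0.05 was 5 without Ctnnb1OE-EC replicates 3 and 4 and 7 to 14 with 1 sample left out, that with a higher mean was 21 to 27, and their median difference was 0.02 to 0.16. Calls among the 71 other pathway genes were 3, against 0 by the methods' test, 0 with the replicate block, 0 without Ctnnb1OE-EC replicates 3 and 4, and 1 to 3 with 1 sample left out. With the block the adjusted p of Ldhb, Cited2 and Loxl4 were 0.0664, 0.166 and 0.0638 from limma. The labels do not say that the numbers pair the samples. The correlation of deviations was over 0.1 in replicate 1 alone (0.253, against -0.18, 0.03 and -0.15). Such a correlation cannot show whether samples with the same number were prepared together, so it is not known whether they are paired.

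Of 907 values of 51 single genes under these settings, 849 kept direction and call, 21 lost the call, 3 gained it and 34 changed sign. The sign changes fell in 13 genes, none of which passed in any setting. Without Ctnnb1OE-EC replicates 3 and 4 the values that changed sign were -0.081 for Hif1a, 0.065 for Hif3a, -0.020 for Hk2, -0.27 for Gapdh, -0.24 for Eno1 and -0.14 for Pdk1. With array weights they were 0.016 for Aldoa, -0.024 for Gapdh, 0.064 for Pgam1, -0.057 for Eno1, 0.027 for Higd1a and 0.0012 for P4ha1. With 1 sample left out the differences ranged from -0.033 to 0.048 for Hif1a, -0.10 to 0.042 for Hif3a, -0.087 to 0.055 for Aldoa, -0.20 to 0.15 for Gapdh, -0.49 to 0.11 for Pgam1, -0.21 to 0.11 for Eno1, -0.0030 to 0.19 for Eno2, -0.16 to 0.038 for Pfkfb4, -0.031 to 0.27 for Car9, -0.44 to 0.039 for Higd1a and -0.17 to 0.084 for P4ha1. The cause of these changes was not tested. Where a fit left out samples it also had fewer arrays, and rows below the array median of 4.20 have the least reliable differences.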
